A study of Mus musculus with 32 samples.

Results

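The cultured cells of this series are 5 RNA-seq libraries of E0771, a mouse mammary tumour cell line, out of 32 libraries in all. They were chosen by their labels: every library of cells grown in culture belongs here, and none was chosen by a measured value. The labels give 3 of them as wild type for Ddr1 and call them E0771-P, EV and Ctrl, and give 2 as Ddr1 knockout and call them 3-6 and 3-7. E0771-P is written here as the parental library, and the short names EV, Ctrl, 3-6 and 3-7 are kept because the labels do not spell them out. The labels do not say how the gene was disrupted, whether 3-6 and 3-7 are separate clones, or whether the libraries of a group came from separate cultures, so each p-value reflects the spread among these libraries alone, which may be technical. No treatment, time point or host applies to the cultured cells. The other libraries are of tumours grown from such cells in Rag1-/- mice, which lack mature T and B cells, and in C57BL/6 mice, and the wild-type and knockout tumours are used at the end as further samples of the same contrast.

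The product of Ddr1 belongs to the discoidin domain receptors, tyrosine kinases of the cell surface whose ligand is collagen and not a soluble growth factor, and whose activation after binding is slow. Collagens are also bound by its relative Ddr2 and by integrins that pair a beta1 chain with one of several alpha chains. In mammary tumours DDR1 has been studied at the border between tumour cells and collagen-rich matrix, including its shed extracellular domain and the alignment of collagen fibres around tumours. E0771 came from a spontaneous mammary tumour of a C57BL/6 mouse and is widely used in that strain.

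Each library held between 29270919 reads, in the parental library, and 37425032 reads, in Ctrl. All values below are normalized read counts, that is, reads divided by 1 factor per library, so they compare a gene between libraries and not one gene with another. Genes with at least 1 read numbered 15537 in the parental library against 13972 to 14430 in the other 4, although the parental library was the shallowest. The mesenchymal genes Vim (109290 to 125230), Zeb1 (3980 to 4709) and Twist1 (999.6 to 1202) and the simple-epithelial keratin gene Krt8 (5616 to 8121) were read in every library, while the epithelial cadherin gene Cdh1 lay between 5.41 and 17.6 and the epithelial genes Krt18 and Krt19 at or below 6.49. Of the epithelial markers, Krt8 alone was thus abundant in all 5 libraries, beside an abundant set of mesenchymal genes. The pan-leukocyte gene Ptprc had at most 1.93, and the T cell gene Cd3e and the red cell gene Hba-a1 were at 0 in all 5 libraries. Other genes used as markers of macrophages and fibroblasts were read: Cd68 lay between 444.3 and 1694 and Lyz2 between 19.8 and 134.2, and Pdgfra lay between 2150 and 3746 and Col3a1 between 119.5 and 403.8, while the fibroblast gene Lum was at 0.

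The libraries did not fall into the 2 labelled groups alone. EV and Ctrl were closest, with 185 of 11911 tested genes apart by more than 2-fold. The pair of knockout libraries came next, with 620 such genes. The parental library differed by more than 2-fold in 878 genes from EV and in 971 from Ctrl, and by 780 genes from 3-6 and 1110 from 3-7. In counts of this kind the parental library was thus as far from the other wild-type libraries as from the knockout libraries. Most of its differences were of 1 sign: 768 of the 878 genes were higher in the parental library than in EV, and 1039 of 1110 were higher than in 3-7. Every pair of libraries differed by more than the sampling noise of its counts, so none was counted as a repeat of another.

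**Figure D1:**
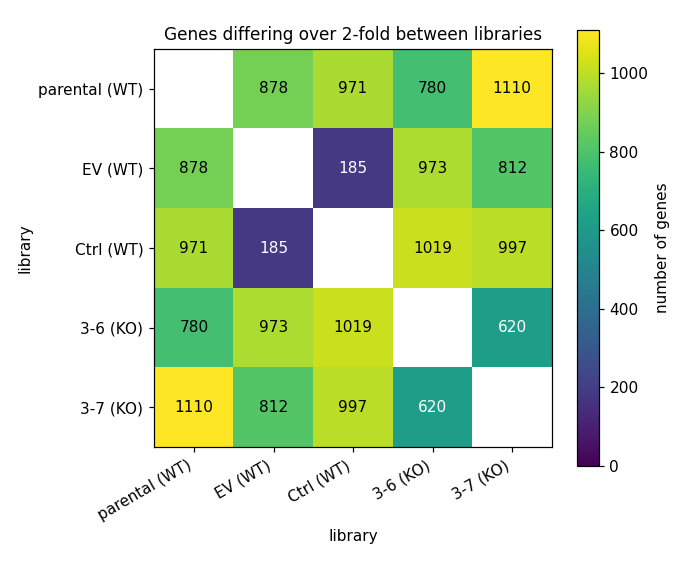
Number of tested genes differing by more than 2-fold between each pair of cultured libraries (rows and columns are libraries, WT for wild type and KO for knockout, and the colour gives the number of genes). EV and Ctrl differ in 185 genes, 3-6 and 3-7 in 620, and the parental library differs from each of the other 4 in 780 to 1110.

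Ddr1 (chr17:35681567-35704741, GRCm38) was read in every library. Its normalized count was 6120 in the parental library, 5854 in EV and 7187 in Ctrl, against 914.5 in 3-6 and 664.9 in 3-7. The knockout libraries kept RNA from the gene, at a level 8.15-fold lower on the log2 scale used for the test, and the groups did not overlap. Ddr1 fell by 3.03 on the log2 scale (SE 0.16, adjusted p = 0.00409 in limma, 3 wild-type against 2 knockout libraries), and it was also called when any 1 of the 5 libraries was left out. Whether the remaining reads come from the disrupted part of the gene cannot be told from a count per gene.

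Of 10 other collagen receptors 5 were abundant enough to test, and none of these was called in any comparison of the cultured libraries. Ddr2, the second discoidin domain receptor, had 7468, 7155 and 7260 in the parental, EV and Ctrl libraries and 9575 and 7051 in 3-6 and 3-7, a log2 difference of 0.17 (SE 0.13, adjusted p = 0.54 in limma). Itgb1, the beta chain shared by the collagen-binding integrins, lay between 38110 and 46482 in all 5 libraries, a log2 difference of -0.04 (SE 0.12). Among their alpha chains Itga1 lay between 445.3 and 647.5 and Itga10 between 90.7 and 164.9. Mrc2, the other receptor tested, had 69.1 in the parental library, 9.27 and 2.70 in EV and Ctrl, and 4.19 and 0.97 in 3-6 and 3-7. It was thus far higher in the parental library than in any other, and few reads stood behind the other values. The groups overlapped for Ddr2, Itgb1, Itga10 and Mrc2, while both knockout libraries stood above the wild-type libraries for Itga1 without passing the test.

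Against all 3 wild-type libraries, few genes passed the test in the knockout libraries, and nearly all of them were lower. Of 11911 genes tested, 2 were called higher, which is 0.0168% of those tested, and 37 were called lower, which is 0.311%. They are described below by the known roles of their products, an ordering made after the calls were seen, and no theme among them was tested. The groups separated far more often than the test called. With 3 against 2 libraries, separation also arises often where nothing differs, so it is not read as a change that the test missed. Both knockout libraries stood above the 3 wild-type libraries for 2201 genes, 18.5% of those tested, and below them for 2114 genes, 17.7%.

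Col4a2, the alpha2 chain of type IV collagen, which is a ligand of DDR1, had 19438 in the parental library, 18648 in EV and 18091 in Ctrl, against 9086 in 3-6 and 9011 in 3-7. The knockout values were nearly equal and both lay below the lowest wild-type library. Col4a2 fell by 1.05 (SE 0.08, adjusted p = 0.0108). Its neighbour and partner Col4a1, looked up after that result was seen, had 44376 to 47856 in the wild-type libraries and 34237 and 38631 in the knockout libraries and was not called, with a log2 difference against EV and Ctrl of -0.29 (adjusted p = 0.0992 in limma). Bcam, a laminin receptor of the immunoglobulin family on chromosome 7, had 452.3, 435.7 and 461.4 in the parental, EV and Ctrl libraries against 90.2 and 45.4 in 3-6 and 3-7, and fell by 2.79 (SE 0.29, adjusted p = 0.0243). Pla2r1, the receptor of secreted phospholipase A2, had 628.1, 631.3 and 657 against 244.3 and 166, and Unc5a, a netrin receptor, had 1151, 1124 and 1311 against 541.1 and 529.8. In both genes the wild-type libraries were close together and the knockout libraries clearly below.

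Among the called genes for secreted proteins, Lbp, which binds bacterial lipopolysaccharide, had 295.3, 247.5 and 525.4 in the parental, EV and Ctrl libraries against 45.1 and 34.7 in 3-6 and 3-7. C1s, a protease of the classical complement pathway, had 3356, 3775 and 4074 against 1615 and 1153. Sepp1, the selenium carrier selenoprotein P, had 810.9, 691.6 and 899.4 against 237 and 206.5, and Sod3, the extracellular superoxide dismutase, 168.7, 119.6 and 177.5 against 16.8 and 29.9. None of these sets overlapped, and the wild-type spread was widest for Lbp. On the log2 scale Lbp fell by 3.06 (SE 0.35), C1s fell by 1.45 (SE 0.16), Sepp1 fell by 1.84 (SE 0.17) and Sod3 fell by 2.72 (SE 0.35), with adjusted p from 0.0163 for Sepp1 to 0.0436 for Sod3 in limma.

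Tmem176a and Tmem176b, neighbouring genes for related membrane proteins, fell together: Tmem176a from 1910, 2359 and 3040 to 178.3 and 80.1, and Tmem176b from 3767, 4717 and 5889 to 391.2 and 181.4. The 2 genes overlap in the genome, and whether their reads were separated by strand is not given in the sources used here. In both, 3-7 was lower than 3-6. Prr19 had 937.5, 711 and 747.1 in the parental, EV and Ctrl libraries against 62.9 and 34.7 in 3-6 and 3-7, and fell by 4.05 (SE 0.28, adjusted p = 0.0108), and Cpt1c, the brain-type carnitine palmitoyltransferase, 171.1, 179.9 and 192.9 against 16.8 and 6.75, and fell by 3.95 (SE 0.40, adjusted p = 0.0217). Padi3, an enzyme that converts arginine in proteins to citrulline, had 1308, 910.4 and 1193 against 209.7 and 235.4, and fell by 2.33 (SE 0.18). Fcer2a, the low-affinity IgE receptor CD23, had 42, 51 and 67 reads in the wild-type libraries and 0 and 1 read in 3-6 and 3-7, and Tmem145 had 51, 42 and 60 reads against 1 and 1. For these last genes the knockout reads are too few for a fold to be given.

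The remaining called genes have varied roles. Espn, which bundles actin filaments, had 283.6, 219.7 and 277.6 in the parental, EV and Ctrl libraries against 50.3 and 52.1 in 3-6 and 3-7. Ngef had 410.1, 287.4 and 318.1 against 95.4 and 57.9, and Mical1, an enzyme that oxidises actin, 918.7, 1047 and 1200 against 486.6 and 411.1. The knockout values of Espn were nearly equal, while 3-7 was the lower library for Ngef and Mical1. Mfng, a glycosyltransferase that modifies Notch receptors, had 287.1, 320.8 and 356 against 55.6 and 74.3, and Bbs2, a subunit of the complex that moves proteins into cilia, 650.4, 777.8 and 774.2 against 216 and 189.1. Atp2b4, a calcium pump of the plasma membrane, had 3854, 4510 and 4952 against 1833 and 1736. Rinl, Apbb1, Fbxo41, Ypel2, Lynx1, Dopey2, Cd37 and Irgq were also called lower: among these Irgq fell by 1.18, the least, and Rinl, at 359.8, 238.3 and 328 against 23.1 and 5.79, fell by 4.58, the most.

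Of the rises, Syt16 was by far the larger. This member of the synaptotagmin family had 10.5 in the parental library, 5.56 in EV and 0.90 in Ctrl, against 279 in 3-6 and 269.2 in 3-7. It rose by 5.71 (SE 0.76, adjusted p = 0.0481 in limma). Few reads stood behind its wild-type values, so this size depends on the 1 added to each value before the log2. On that scale its wild-type libraries differed among themselves more than its knockout libraries did. Tmed5 on chromosome 5, a carrier of cargo between the endoplasmic reticulum and the Golgi apparatus, had 2522, 2481 and 2361 against 3801 and 4263 and rose by 0.71 (adjusted p = 0.0499).

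**Figure D2:**
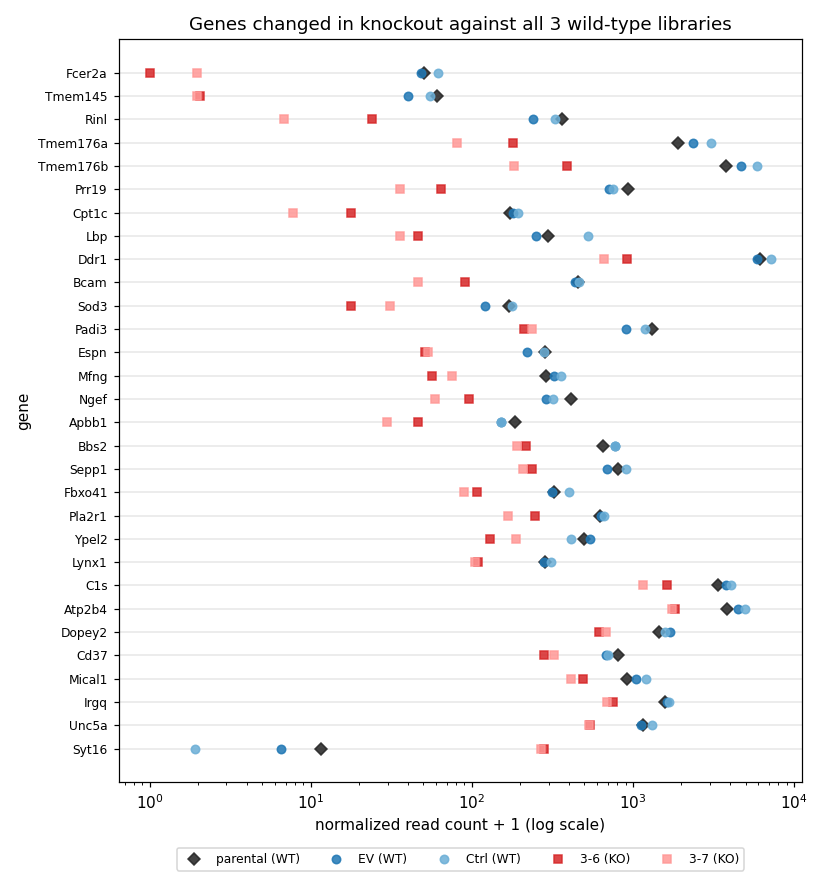
Normalized read count plus 1 (log axis) of the 30 genes with the largest changes among those called in knockout against all 3 wild-type libraries, 1 row per gene, with 1 point per library (diamond parental, circles EV and Ctrl, squares 3-6 and 3-7). In 29 rows both squares lie left of the 3 wild-type points, and in the row of Syt16 they lie to the right, at 279 and 269.2.

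The number of these calls depended on single libraries. Without the parental library 905 genes were called higher and 750 lower, without EV, Ctrl, 3-6 or 3-7 between 2 and 8 genes were called in all, and with all 5 libraries and DESeq2 on the recovered reads 473 and 582. The fit with all libraries but with the parental library as a class of its own compares the knockout pair with EV and Ctrl. It called 619 genes higher, 5.2% of those tested, and 491 lower, 4.12%, of which 137 and 223 by more than 2-fold. This comparison, the one against all wild-type libraries and that of the parental library below share libraries, so their calls are not independent of each other. The calls against EV and Ctrl were lost when either of these libraries was left out. That leaves 1 library in the class, and why the calls were lost was not tested. Without the mean-variance trend 1 gene was called. Counts from other tools were 895 higher and 747 lower with edgeR and 1108 and 870 with DESeq2.

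In most of these calls, but not all, the parental library lay on the EV and Ctrl side of both knockout libraries, though not always near EV and Ctrl. Of the 619 genes higher in the knockout pair, the parental level was below both knockout libraries for 448, between them for 83 and at or above both for 88. Of the 491 lower genes it was above both for 423, between them for 53 and at or below both for 15. The largest rises and falls named next were picked among genes with both knockout libraries outside the range of the 3 wild-type libraries. For these genes the parental library was thus on the wild-type side of both knockout libraries by choice. Bmp7, a bone morphogenetic protein, had 63.3 in the parental library, 9.27 in EV and 4.51 in Ctrl, against 403.8 in 3-6 and 221.9 in 3-7. Wdfy4, a protein needed for cross-presentation in dendritic cells, had 214.4 in the parental library, 31.5 and 27.9 in EV and Ctrl, and 941.7 and 647.5 in 3-6 and 3-7. In both genes the parental value lay above EV and Ctrl and below both knockout libraries. Against EV and Ctrl the knockout pair was higher by 5.32 (SE 0.46) for Bmp7 and 4.67 (SE 0.25) for Wdfy4, and the parental library by 3.10 (SE 0.56) and 2.81 (SE 0.31), where the Bmp7 difference of the parental library was not called (adjusted p = 0.093 in limma).

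For other genes the parental library came close to the knockout pair. Evi2a had 394.9 in the parental library, 100.1 and 78.4 in EV and Ctrl, and 463.5 and 462.2 in 3-6 and 3-7. Fam167a had 393.7, then 89 and 107.3, then 530.6 and 434.2. Both genes were thus several times higher in the parental library than in EV and Ctrl. Igfbp5, which binds insulin-like growth factors, went the other way, with 11.7 in the parental library, 64 in EV and 183.9 in Ctrl, and 6.29 and 5.79 in 3-6 and 3-7. Cbr2, a carbonyl reductase, had a parental level between the groups, at 171.1, with 507.1 and 886.8 in EV and Ctrl and 45.1 and 140.9 in 3-6 and 3-7.

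The differences from EV and Ctrl were also read by position in the genome. 3 chromosomes, numbers 5, 7 and 11, stood apart when genes were ordered by position, which 99.2% of tested genes had. Chromosome 5 was higher along its whole length: over 748 genes the median log2 difference was 0.34, or 1.27-fold, against -0.004 over all tested genes, and 192 genes were called higher and 7 lower. The median was 0.35 in 3-6 and 0.34 in 3-7, while it was 0.05 in the parental library and 0.01 for EV against Ctrl. Both knockout libraries exceeded all 3 wild-type libraries in 456 of the 748 genes, 61%, where the share over all genes was 18.5%. So both knockout libraries showed this shift at the same size, while the medians of the wild-type libraries lay near 0.

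Chromosome 7 was lower over 1 stretch only. From 18 to 50 Mb, 333 tested genes had a median of -0.40, with 86 called lower and 3 higher, and both knockout libraries were below all 3 wild-type libraries in 237 of them, 71.2%. The parental median there was -0.01. Over the remaining 593 genes of the chromosome the median was -0.003, with 22 called higher and 23 lower. The bounds of the stretch were set after the medians in windows along the chromosome had been seen. Of the 37 genes called lower against all 3 wild-type libraries, 11 lie in it, among them Bcam, Prr19, Tmem145, Rinl, Cpt1c, Cd37, Irgq and Gys1, the muscle form of glycogen synthase. Eml2, a microtubule-binding protein in the same stretch, had 6894, 6636 and 6457 in the wild-type libraries against 3506 and 3916.

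On parts of chromosome 11 the parental library moved too. From 40 to 80 Mb the median over 387 genes was 0.25 in the knockout pair against EV and Ctrl and 0.14 in the parental library against the same libraries. From 100 Mb to its end the medians were 0.25 and 0.17 over 299 genes. Between 80 and 100 Mb they were -0.005 and 0.03 over 196 genes, and from 20 to 40 Mb, where the parental library was lower, -0.05 and -0.24 over 65 genes. These bounds too were set after the medians in windows had been seen. Over the raised stretches, then, the separation was partly one between EV and Ctrl and the other 3 libraries. The chromosomes and stretches were chosen for their medians, so the counts of calls within them are descriptions and are not tested against the rest of the genome.

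**Figure D3:**
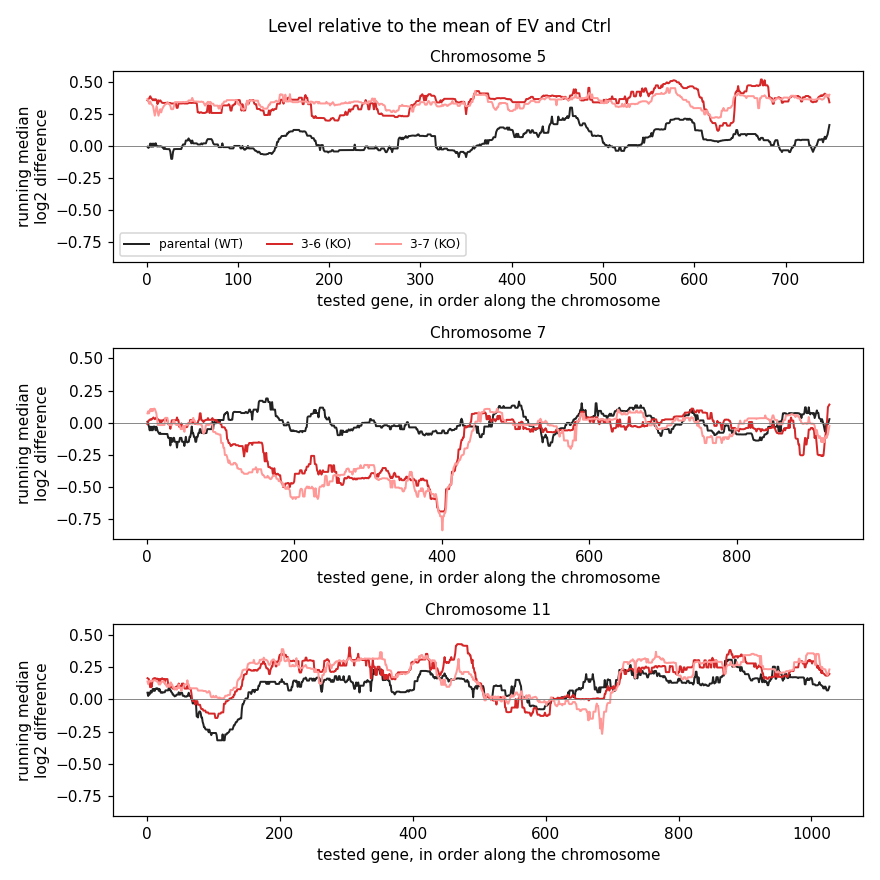
Running median over 41 neighbouring tested genes (x axis, genes in order along the chromosome) of the log2 difference from the mean of EV and Ctrl (y axis) for the parental, 3-6 and 3-7 libraries. The grey line marks 0. Both knockout lines stay above 0 along chromosome 5 with a median of 0.34, drop on 1 stretch of chromosome 7 with a median of -0.40, and on chromosome 11 have medians above 0, as does the parental line, over the stretch from 40 to 80 Mb and that from 100 Mb to the end.

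Lists of genes grouped by function were compared between the knockout pair and EV and Ctrl. Each is read beside the 5.2% and 4.12% called over all genes, and as a description. Basement membrane genes had 5 of 17 tested members called lower and 0 higher, with a median of -0.20: beside Col4a2 and Bcam these included the laminin chains Lama5, at 24971 in the parental library, 28227 and 30023 in EV and Ctrl and 21840 and 21133 in 3-6 and 3-7, and Lamb2, at 4634, then 6292 and 7191, then 4360 and 4733. For Lamb2 the parental library lay between 3-6 and 3-7 and not with EV and Ctrl. Of 13 fibrillar and other collagens, 3 were higher and 2 lower. Col1a1, a chain of type I collagen, had 1687 in the parental library, 944.7 in EV and 2662 in Ctrl, against 8494 in 3-6 and 25571 in 3-7, higher by 3.22 (SE 0.68, adjusted p = 0.0499 in limma). Col7a1, the collagen of anchoring fibrils, had 3157, 3458 and 3285 against 6883 and 5024, while Col6a1 had 11030 in the parental library, 23063 and 29706 in EV and Ctrl, and 7643 and 12937 in 3-6 and 3-7. Col1a1 differed 3-fold between the knockout libraries, yet both were above every wild-type library.

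Of 23 matrix proteases and inhibitors 5 were called higher and 1 lower against EV and Ctrl, and of 10 integrins outside the collagen receptors 3 were called higher and 2 lower. Set against all 3 wild-type libraries, both knockout libraries stood above them for 4 of the proteases and inhibitors and below them for 3, and for the integrins above in 0 and below in 3. Over all tested genes the shares were 18.5% above and 17.7% below, and no result is read from these counts. Plau, the urokinase plasminogen activator, had 1102 and 975.1 in EV and Ctrl and 4222 and 3828 in 3-6 and 3-7, and its receptor Plaur had 2827 and 2720 against 5315 and 4453. The parental library was above all of these, at 7368 for Plau and 7541 for Plaur. Itgb3, the beta3 chain of vitronectin receptors, had 1793 and 1592 in EV and Ctrl, 5070 and 3788 in 3-6 and 3-7, and 4824 in the parental library. Itgb4, the beta4 chain of hemidesmosomes, had 157.6 and 186.6 in EV and Ctrl, 67.1 and 76.2 in the knockout libraries and 114.8 in the parental library. Mmp19, the protease that fell, had 464.4 and 575 in EV and Ctrl and 166.7 and 213.3 in 3-6 and 3-7, with 326.9 in the parental library. Plau, Plaur and Itgb3 therefore separated EV and Ctrl from the other 3 libraries and not wild type from knockout, whereas both knockout libraries were below all wild-type libraries for Itgb4 and Mmp19.

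Receptor tyrosine kinases and their ligands had 5 of 22 members higher and 1 lower. Met, the receptor of hepatocyte growth factor, had 3772, 3456 and 3354 in the parental, EV and Ctrl libraries against 5178 and 5146, higher by 0.60 (SE 0.07, adjusted p = 0.0252), and did not overlap. Pdgfra, a receptor of platelet-derived growth factor on chromosome 5, had 2150 and 2177 in EV and Ctrl, 3746 and 3595 in 3-6 and 3-7, and 3244 in the parental library. Its ligand Pdgfa, on the same chromosome, had 2253 and 2193, then 3616 and 3259, and 3051 in the parental library. Axl, the member that fell, lies in the chromosome 7 stretch and had 32927, 30573 and 33061 against 25086 and 23923.

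Hypoxia and glycolysis genes had 8 of 26 members called lower and 1 higher, with a median of -0.19: Ankrd37, a target of hypoxia-inducible factor, had 447.6 in the parental library, 733.3 and 792.2 in EV and Ctrl, and 224.4 and 280.8 in 3-6 and 3-7, and Gpi1, the glycolytic phosphoglucose isomerase, 24271, 23395 and 23128 against 16468 and 17272. Gpi1 also lies in the chromosome 7 stretch. Pfkfb3, which makes the activator of phosphofructokinase, had 4480, 5277 and 4659 against 3176 and 3412. NRF2 and antioxidant genes had 6 of 21 members lower and 1 higher, among them the glutathione transferases Gstm1, at 587.1, 958.6 and 1216 against 357.6 and 530.7, and Gsta4, at 164.1, 280 and 428.1 against 104.9 and 135.1. Srxn1, the antioxidant gene that rose, had 5791, 4205 and 4754 against 7164 and 6429. Of 22 ribosome biogenesis genes 4 were called higher and 0 lower, with a median of 0.23 over the list. The called Mybbp1a had 33482, 25383 and 25879 against 42150 and 39813. In knockout tumours of Rag1-/- hosts the list went the other way, with 0 of 22 called higher, 5 lower and a median of -0.08. Over all genes tested there, 11.3% were called higher and 11.4% lower. None of the 24 respiratory chain genes was called, with a median of 0.01, nor was any of the 26 mitosis genes called higher, of which 2 were lower.

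The epithelial gene Epcam had 31.6, 22.2 and 36 in the parental, EV and Ctrl libraries against 112.2 and 115.8 in 3-6 and 3-7, higher by 1.97 (SE 0.32, adjusted p = 0.0333 in limma against EV and Ctrl). Krt8, at 6980, 8121 and 7706 against 6241 and 5616, was lower by 0.42 in the same comparison. These 2 epithelial genes thus moved in opposite directions, and the luminal list as a whole had 2 of 7 members higher and 1 lower. Acta2, smooth muscle actin, had 8475, 9845 and 11604 against 4015 and 5792 and was lower by 1.15 (SE 0.19).

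The knockout libraries also differed from each other. 3-6 exceeded 3-7 by more than 2-fold in 542 genes, 4.55% of those tested, and was lower by more than 2-fold in 78, 0.655%. With 1 library on each side this has no test. Chac1, a glutathione-degrading enzyme, had 628.2 in 3-6 and 126.4 in 3-7, and the haematopoietic exchange factor Vav1 had 124.8 and 18.3. On the other side Usp18, an interferon-induced protease, had 9.44 in 3-6 and 40.5 in 3-7, and Oasl2, an interferon-induced relative of oligoadenylate synthetases, 26.2 and 96.5. EV and Ctrl, for comparison, had 96 genes higher in EV by more than 2-fold, 0.806%, and 89 lower, 0.747%. Irf8 had 218.8 in EV and 94.6 in Ctrl, Col1a1 944.7 and 2662, and Igfbp5 64 and 183.9, so that Col1a1 varied about as much between EV and Ctrl as between 3-6 and 3-7.

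The parental library was higher than EV and Ctrl in interferon-stimulated genes, in a set of genes that the other 4 libraries hardly read, and in others shared with the knockout pair. The limma fit, in which this single library is assumed to vary like the other classes, called 82 genes higher, 0.688% of those tested, and 3 lower, 0.0252%. With quantile normalization the calls were 254 higher and 88 lower, and without EV or without Ctrl there were 0, with 1133 and 948 genes at an unadjusted p under 0.05. The 3 lower genes were a gene whose symbol had been turned into a date, Odz4, a teneurin, at 471.1 in the parental library, 1475 and 1488 in EV and Ctrl and 1294 and 1106 in 3-6 and 3-7, and the clock gene Per3, at 752.3, then 1484 and 1521, then 908.2 and 897.4. Odz4 was low in the parental library alone, while Per3 was high in EV and Ctrl alone.

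Type I interferon acts through a complex of transcription factors that binds a short element in the promoters of its target genes. Of 31 interferon-stimulated genes tested, 30 were highest in the parental library among all 5, where this was so for 20.9% of all tested genes, and in 14 the parental level was over 3-fold that of every other library. The exception was Ifit2, at 860.1 in the parental library and 858.9 to 1058 in the others. The median log2 difference of the list from EV and Ctrl was 1.80, against -0.01 over all tested genes, and 4 members were called: Bst2, Ddx58, Oas1a and Trim30a. Oas1a, an oligoadenylate synthetase, had 809.7 in the parental library, 124.2 and 86.5 in EV and Ctrl, and 144.7 and 111 in 3-6 and 3-7, higher by 2.95 (SE 0.33, adjusted p = 0.0415). Ddx58, the RNA sensor RIG-I, had 3544 in the parental library and 1322 to 1807 in the others, and Bst2, which tethers budding virions, 11158 against 5462 to 6502. Trim30a differed from these: it had 185.2 in the parental library, 17.6 and 23.4 in EV and Ctrl, but 122.7 and 114.8 in the knockout libraries, and was the 1 list member called higher in the knockout pair. Most members with the largest differences were not called, such as Oas3 at 2366 against 204 and 135.2 (adjusted p = 0.0775) and Usp18 at 706.6 against 28.7 and 30.6 (adjusted p = 0.0929). With edgeR 20 members were called in either direction, where that tool called 381 of the 11911 genes in all. With DESeq2 21 members were called, where it called 821 genes in all. The 3-6 library was the lowest of the 5 in 19 of the 31 genes, and in 22.7% of all tested genes.

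The element bound by that complex can be looked for in the promoters. A motif of GAAA, any 2 bases and GAAA again was searched on both strands in the 250 bases before each annotated start site (RefSeq, GRCm38.p6). It was found for 9 of the 22 tested list members in the promoter table, 40.9%, against 260 of 8440 tested genes in the table, 3.08%. Of the genes called higher in the parental library and present in the table, 4 of 55 held it, 7.27%. The list members Bst2, Oas1a and Trim30a are among those 4, so this share is not separate from that of the list. These shares are descriptions, and a match is not shown to be a bound site. Members with the motif had a median log2 difference of 1.86 (0.56 to 3.82) and those without it 1.45 (-0.19 to 4.11), so the ranges overlapped. Promoter stretches of 4 members on the gene's own strand, which is the minus strand in each, are shown as examples of members that hold the motif. Only the match nearest the start site stands in capitals, in either direction. In Bst2 and Isg15 further matches begin in the lower-case bases before it. The stretches are Trim30a at chr7:104465205-104465244, Bst2 at chr8:71537572-71537611, Oas3 at chr5:120777710-120777749 and Isg15 at chr4:156200860-156200899.
Trim30a: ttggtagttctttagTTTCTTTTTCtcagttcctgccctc
Bst2: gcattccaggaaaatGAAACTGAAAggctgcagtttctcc
Oas3: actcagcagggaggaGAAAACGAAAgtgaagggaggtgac
Isg15: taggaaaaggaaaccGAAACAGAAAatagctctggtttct
The match in capitals stands on the strand of the gene in Bst2, Oas3 and Isg15 and on the opposite strand in Trim30a. That match begins 36 bases before the start site in Trim30a, 124 in Bst2, 75 in Oas3 and 66 in Isg15.

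**Figure D4:**
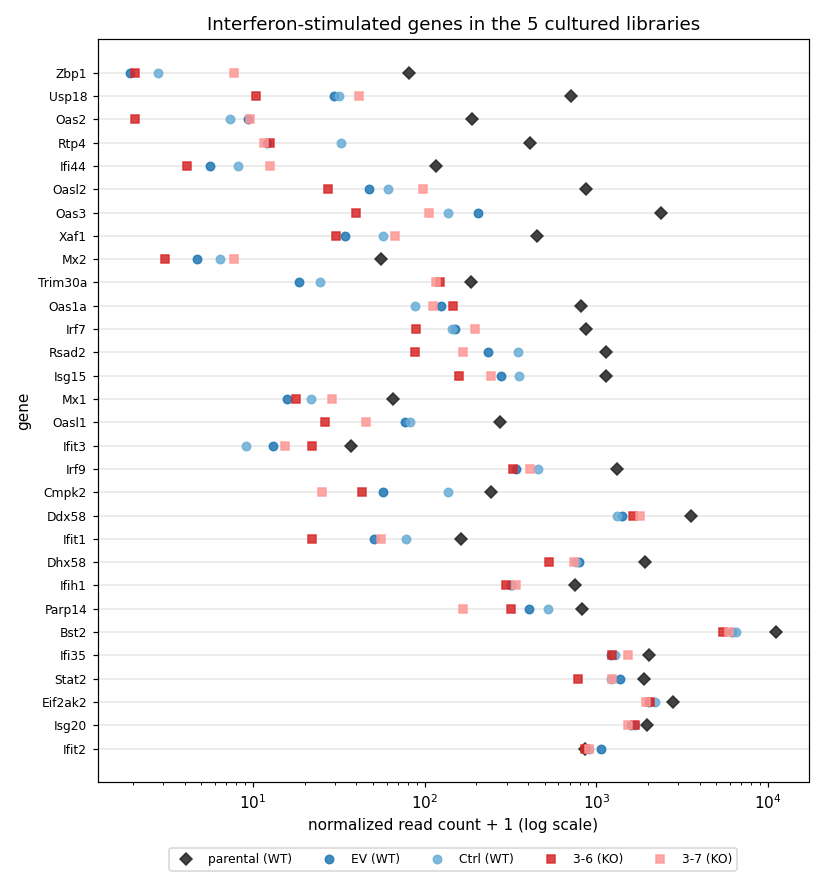
Normalized read count plus 1 (log axis) of 30 of the 31 tested interferon-stimulated genes in the 5 cultured libraries, 1 row per gene ordered by the difference of the parental library from EV and Ctrl (diamond parental, circles EV and Ctrl, squares 3-6 and 3-7). The diamond is the rightmost point in every row but that of Ifit2.

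A further set of genes was read almost only in the parental library. There were 292 genes with a normalized count of 10 or more there and at most 3 reads in each of the other 4 libraries, and 41 with 50 or more. The same rule gave 0 genes for EV, 0 for Ctrl, 1 for 3-6 and 1 for 3-7. These 292 genes together took 0.0284% of the parental reads. What cells these reads come from was not tested, and the parental differences from the other libraries are given with that limit. The highest was Hspa1l, a heat shock protein best known from testis, at 731.2 in the parental library and at most 1.80 in any other. App, the amyloid precursor protein, had 274.2 against at most 1.05, and Fhl1, a LIM domain protein of muscle, 338.6 against at most 0.96. Nrn1 and Nefm, genes of neurons, had 225 and 194.5, and Actc1, cardiac actin, 150.

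Genes with no read in any other library included Actc1, Kctd12 at 143, the transcription factor Sox4 at 133.6 and the homeobox gene Hoxa5 at 123. Against 3 reads in the library where these weigh most, these are at least 47.7-fold, 45.4-fold, 42.5-fold and 39.1-fold higher in the parental library. Hox genes, which set position along the body axis, numbered 11 among the 292. Xist, the RNA that silences an X chromosome, was not in the set but stood apart in the same way, at 442.9 in the parental library against 8.34, 4.51, 4.19 and 2.89. The rule chose these genes for being high in the parental library, so no test of that difference is given for them. In lists of markers of other cells single genes made up most of the sums: of the skeletal muscle and blood list, summed at 678.5 in the parental library and 105.9 to 189.3 in the others, Acta1 made up 571.8 while Hba-a1 was at 0, and T and NK cell genes summed to 97.3 against 73.9 to 113.3, with Lck making up 84.4 and Cd3e at 0. Macrophage and neutrophil genes summed to 1871 in the parental library and 598.4 to 1893 in the others, with Cd68 at 1420 and Ptprc at 0. The part of RNA from other cells in these values was not tested.

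**Figure D5:**
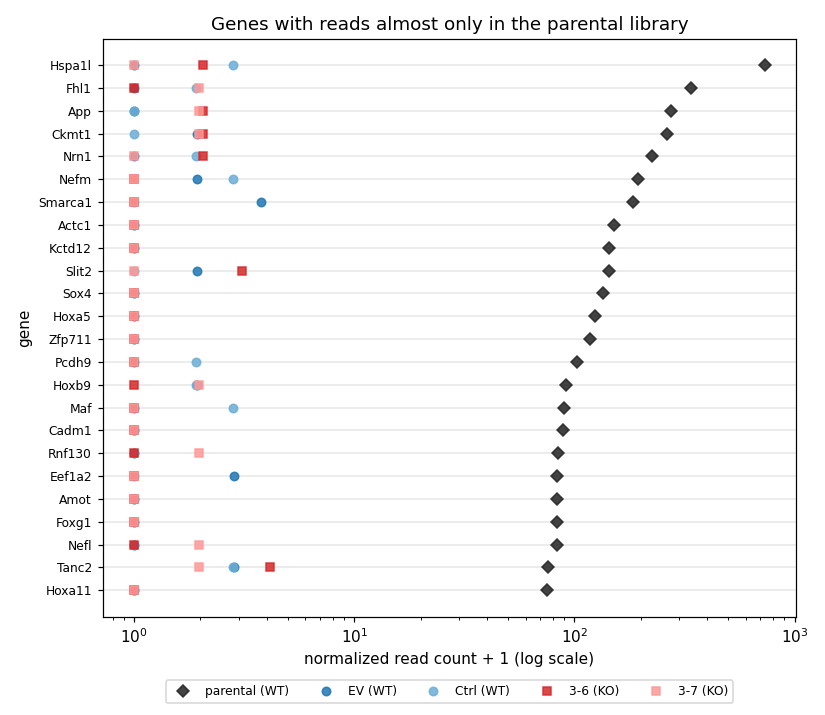
Normalized read count plus 1 (log axis) of 24 of the most abundant genes read almost only in the parental library, 1 row per gene (diamond parental, circles EV and Ctrl, squares 3-6 and 3-7; points at 1 stand for no reads). The diamonds run from 731.2 for Hspa1l to 73.8 for Hoxa11, while no other library has more than 3 reads for any of these genes.

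Fewer genes set off the other combinations of libraries. With the same rule 15 genes were read in the 3 wild-type libraries and not in the knockout pair, among them Fcer2a, Tmem145 and Ccdc8, at 32.8, 105.7 and 142.4 against 3.15 and 1.93. None was read only in the 2 knockout libraries. Maged2, C5ar1 and Iqcf1, the 3 genes read in the parental and both knockout libraries but not in EV and Ctrl, were named after their values were seen. Maged2 had 150 in the parental library, 36.7 and 34.7 in 3-6 and 3-7, and 0.93 and 0.90 in EV and Ctrl.

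Tumours grown from wild-type and knockout E0771 cells in Rag1-/- hosts, 5 of each, gave the same contrast in libraries that were not used above. These tumours are not shown to come from separate knockouts, so their p-values reflect the spread among tumours. In bulk tumours fewer cells of a type and less RNA per cell cannot be told apart, and host cells add RNA. There limma called 1441 of 12795 genes higher in knockout tumours, 11.3%, and 1463 lower, 11.4%. Ddr1 was 3645 to 4057 in the wild-type tumours and 686.4 to 886 in the knockout tumours, lower by 2.34 (SE 0.06, adjusted p = 3.88e-11 in limma). Of the 37 genes lower in cultured knockout cells 36 could be tested, 23 were also lower in the knockout tumours and 2 were higher, Ngef by 2.06 and Sepp1 by 0.50. Both genes higher in culture, Syt16 and Tmed5, were higher in the tumours. Syt16 had at most 1.14 in any wild-type tumour and 159.8 to 183.3 in the knockout tumours.

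The wider set of calls against EV and Ctrl was followed as well. Of its 610 rises tested in the tumours 287 rose and 17 fell, and of its 466 falls 212 fell and 12 rose. Among the rises, genes with the parental library at or above both knockout libraries rose in 35 of 84 cases and fell in 7. Those with it below both, whether or not near EV and Ctrl, rose in 204 of 445 and fell in 7. The chromosome pattern was weaker in the tumours: the median of chromosome 5 was 0.10 over 735 genes, with 184 higher and 26 lower, that of the chromosome 7 stretch was -0.29 over 317 genes, with 174 lower and 6 higher, and that of chromosome 11 from 40 to 80 Mb was 0.12. Over all culture-tested genes the tumour median was -0.0008. Of the 292 genes read almost only in the parental library in culture, 88 had a mean above 10 in the wild-type tumours. Of all 22609 genes, 12795 had a mean of 10 or more over the wild-type and knockout tumours together. App had a mean of 1212 in wild-type and 1256 in knockout tumours.

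In C57BL/6 hosts at day 4 the match was partial. Ddr1 was 3091 to 4195 in 4 wild-type tumours and 614.6 to 1181 in 5 knockout tumours. Of the 30 genes with the largest changes in culture 27 were in that table, and 6 were lower and 1 higher in the knockout tumours without overlap, with 20 overlapping. Of the 10646 genes tested in culture that this table holds, 4.62% were lower and 1.46% higher without overlap. Ddr1, the targeted gene, is 1 of the 6. Prr19 had 535 ± 134 (SD, n = 4) in wild-type and 84.3 ± 34.9 (SD, n = 5) in knockout tumours. Cpt1c, by contrast, had 99.5 ± 19.7 and 104 ± 40.9 there, and Tmem176b 996 ± 394 and 1957 ± 1027, so the low levels of these in cultured knockout cells were not seen in the day 4 tumours. The median of chromosome 5 there was -0.05 over 671 genes, beside -0.04 over all.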

How the data were processed

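The 5 cultured libraries were taken from 1 table of the authors. Per the labels' protocols, Trizol was used for the RNA and libraries followed an Illumina stranded mRNA kit. CASAVA, TopHat and DESeq2 stand in the submitters' processing notes without version or role, with the build mm10. The sources used here do not give the counting tool or its strand setting. The deposited values are of the signal kind: read counts per gene that the authors had divided by a size factor per library. In the culture and Rag1-/- tables all values were whole multiples of 1 step (tolerance 0.01), which gave the reads. The tables were normalized separately and tests stayed within a table. The authors' fold changes and p-values were not used, nor was the day 6 table.

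Genes with a mean of 10 or more were tested with limma 3.58.1 (R 4.3.3, mean-variance trend, two-sided) on log2(value + 1), which understates changes of weakly read genes, and called at a Benjamini-Hochberg adjusted p under 0.05. All log2 differences are on this scale. 3 fits were made: knockout against the 3 wild-type libraries, and a fit of 3 classes (parental, EV with Ctrl, knockout) that gave knockout and parental against EV and Ctrl. As a lookup, 5 against 5 tumours of Rag1-/- hosts were fitted alike. The fits were also run on simulated data with planted changes, in which the libraries of a group were drawn alike. That run checked the code and does not measure how stable the calls are in these libraries. edgeR 4.0.16 and DESeq2 1.42.0 were run on the recovered reads as alternatives, besides other pseudocounts, filters, scalings and leaving out each library.

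Named genes are Ddr1 and collagen receptors, the 30 largest changes among the genes called against all wild-type libraries (with usable symbols), up to 12 per direction of the other fits with a mean of 50 or more and groups that do not overlap, up to 4 called members of a list (39 lists, 819 genes; those with a result are described) and 5 per direction between 2 libraries. Other genes, such as Col4a1, Tmed5, Eml2, Gys1, Ifit2, Oas3 and those read almost only in the parental library, were named after their values were seen. The members and lists were chosen with earlier results of these data known. Positions are from RefSeq on GRCm38.p6, the build of mm10. 25 symbols turned into dates were left as they stood. A few items are not reported here.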

Additional observations from a re-analysis of the deposited data

Results flagged for a closer look

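In 36 groups of tumour values, those of 9 genes followed from culture, 3 samples lay apart from the rest of their group by Dixon's criterion, where chance sets apart about 1 group in 20. Ddr1 was 1180.7 in 1 knockout tumour of day 4, replicate 5, with the other 4 between 614.56 and 728.4. That value is still below every wild-type tumour of the table. Prr19 was 144.29 in knockout tumour 3 of the Rag1-/- hosts, with the others between 171.4 and 181.13, and 732.85 in wild-type tumour 3 of day 4, with the others between 437.73 and 487.44. The groups of 2 and 3 cultured libraries are too small for this check.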

How the results depend on the processing

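The 39 genes called in knockout against all 3 wild-type libraries numbered 12 without the mean-variance trend, 25 with edgeR on the recovered reads and 1055 with DESeq2, and from 2 (without EV) to 1655 (without the parental library) with 1 library left out. It was 8 without 3-6, 4 without 3-7 and 7 without Ctrl. The 1110 calls against EV and Ctrl became 208 with no filter on the mean, 1 without the trend and 1978 with DESeq2, and ran from 0 (without EV or without Ctrl) to 2722 (without 3-7) with 1 library left out. The 85 calls of the parental library became 145 when a mean of 50 or more was asked for, 1297 when none was, 129 with a pseudocount of 5, 342 with quantile normalization, 32 without the trend, 381 with edgeR and 821 with DESeq2, and from 0 to 1443 with 1 library left out, where without EV or without Ctrl 0 remained. Leaving out the parental library leaves no such comparison. The causes of these differences were not tested. No named gene that was called changed direction under any setting. Cultured libraries carry no number that the labels use in both groups as a pairing. In Rag1-/- hosts a replicate block gave 2411 calls against 2904 without it, and 1 tumour left out gave 1984 to 3093. Depth limits the weakly read genes: Fcer2a rests on 0 and 1 reads in the knockout libraries.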
